A study of Mus musculus with 6 samples.

Results

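The genes described here are the interleukin and chemokine receptor genes of the mouse. They were chosen by name: protein-coding genes of the GENCODE M21 annotation whose symbol begins with Ccr, Cxcr or Cx3cr and a digit, or with Il, a number and r, leaving out Il3ra. The rule gave 58 of 21938 protein-coding genes, on 16 chromosomes, and used no measured value. Their windows, which are the gene bodies with 10 kb on either side on mm10, cover 5.63 Mb and held 370 of the 112852 regions found in the series. A region is an interval made by merging the overlapping peaks of all samples.

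The study asked how blocking guanine nucleotide synthesis changes chromatin accessibility in leukemia stem cells (LSCs). ATAC-seq, in which the transposase Tn5 inserts sequencing adapters into open DNA, was run on sorted LSCs of a murine acute myeloid leukemia driven by the fusion oncogene MLL-AF9. The data were 1 deposited peak list for each of 3 Control and 3 MMF samples. MMF is mycophenolate mofetil, the prodrug of mycophenolic acid, which inhibits inosine monophosphate dehydrogenase.

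Both groups were L-GMP cells, the leukemic counterpart of granulocyte-macrophage progenitors, labelled as blood tissue and as genotype WT, and both grew in medium with 20% serum and 10 ng/ml mouse IL3. The MMF group received the drug for 24 h per the labels. The sources give more than 1 dose and duration for the drug, so no dose is stated. What the Control group received in its place is not given in the sources used here. Neither do the labels say whether the samples were separate cultures or separate leukemias, so p-values measure only the spread between these samples, which may be technical. The model rests on MLL-AF9 that the study's methods describe as retrovirally introduced, so both groups carry the oncogene although the label reads WT.

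Chemokine receptors are G protein-coupled receptors that steer leukocytes along gradients of chemokines. Ccr1, Ccr2, Cxcr2 and Cx3cr1 are known from monocytes and neutrophils, and Cxcr4 holds progenitors in the marrow through its ligand Cxcl12. Interleukin receptors are built from chains that bind a cytokine and chains that signal. Most hematopoietin-type chains act through JAK kinases and STAT factors, while the receptors of the IL-1 and IL-17 families act through adaptors such as Myd88 and Traf3ip2. Il1rn, a secreted blocker of Il1r1, and Il22ra2, a secreted decoy, match the naming rule although they do not signal.

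The lists held between 58496 and 63911 peaks in the Control group and between 80893 and 86556 in the MMF group on the chromosomes used. A median peak had between 14 and 19 reads over its summit, so single regions rest on few reads. The lowest −log10 p was between 3.01 and 3.02 in every list, so the longer and the shorter lists reach the same cutoff. A peak missing from a list was below the threshold of the peak caller and does not mean closed chromatin. Of the 11 LSC and myeloid progenitor markers checked, 10 had a promoter peak in at least 1 list, among them Kit, Spi1 and Meis1 in all 6, and Mpo had none. No T cell marker of 5 had one, and of 4 B cell markers only Ebf1 did. Of 5 erythroid markers, 3 had one, with Klf1 in all 6 lists. In sorted but bulk samples, a site open in more cells and a site more open in each cell cannot be told apart.

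Sequence is shown first for 2 sets of receptor regions that the results below turn on. The first set is 5 regions that had a peak in every MMF list and in no Control list, and whose central 200 bp held the C/EBP motif. They were picked for holding it: 8 of the 20 receptor regions with this pattern did, against 23.5% of all regions with it. The sequences are the plus strand of GRCm38 (mm10), 5′ to 3′, centred on the summit of the highest peak, and capitals mark motif matches on either strand. The motif was searched as TTGCNNAA, and the capitals in the Il10ra sequence also mark 2 matches to the STAT motif TTCNNNGAA. C/EBP factors are regulators of granulocyte and monocyte genes, which is why this motif is shown.
Il15ra intron, chr2:11722563-11722762: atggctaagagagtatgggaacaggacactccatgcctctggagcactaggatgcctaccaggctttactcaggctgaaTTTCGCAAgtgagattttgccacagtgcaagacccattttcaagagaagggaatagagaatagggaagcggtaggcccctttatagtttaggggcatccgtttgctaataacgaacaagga
Il6ra intron, chr3:89905105-89905304: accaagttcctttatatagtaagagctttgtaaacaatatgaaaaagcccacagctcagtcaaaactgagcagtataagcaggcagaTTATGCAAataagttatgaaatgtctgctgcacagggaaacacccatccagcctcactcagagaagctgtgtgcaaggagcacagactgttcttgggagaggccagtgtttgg
Il10ra intron near its start, chr9:45268120-45268319: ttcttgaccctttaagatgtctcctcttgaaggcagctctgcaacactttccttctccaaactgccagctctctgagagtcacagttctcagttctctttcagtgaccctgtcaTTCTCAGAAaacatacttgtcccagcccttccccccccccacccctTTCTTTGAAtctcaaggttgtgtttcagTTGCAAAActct
Il20ra intron, chr10:19745934-19746133: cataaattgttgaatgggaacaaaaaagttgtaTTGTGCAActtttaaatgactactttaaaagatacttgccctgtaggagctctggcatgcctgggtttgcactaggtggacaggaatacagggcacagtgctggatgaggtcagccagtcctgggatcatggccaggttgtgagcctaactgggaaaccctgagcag
Il10rb intron, chr16:91415481-91415680: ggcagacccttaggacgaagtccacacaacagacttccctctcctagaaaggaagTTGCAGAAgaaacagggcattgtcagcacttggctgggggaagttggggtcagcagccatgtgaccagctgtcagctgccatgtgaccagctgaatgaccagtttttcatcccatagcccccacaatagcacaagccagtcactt

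The second set is 5 of the 7 regions that were called higher under MMF. Capitals mark a PU.1 match (GAGGAAGT) beside Cxcr5, an AP-1 match (TGANTCA) in Ccr9, a STAT match beside Il20ra and a RUNX match (AACCACA) in Il17rd. The Il10rb sequence held no match and is shown because it repeats itself: its most frequent run of 12 bases occurs 5 times within the 200 bp.
Cxcr5 upstream, chr9:44567727-44567926: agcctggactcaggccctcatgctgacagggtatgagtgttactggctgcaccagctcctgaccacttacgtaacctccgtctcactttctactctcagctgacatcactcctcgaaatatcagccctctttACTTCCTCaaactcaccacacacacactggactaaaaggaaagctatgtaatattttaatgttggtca
Ccr9 intron, chr9:123722836-123723035: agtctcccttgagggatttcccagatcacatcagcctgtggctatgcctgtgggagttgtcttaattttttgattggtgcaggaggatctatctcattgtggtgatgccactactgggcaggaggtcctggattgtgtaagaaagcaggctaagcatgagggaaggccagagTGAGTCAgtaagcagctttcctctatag
Il20ra downstream, chr10:19765560-19765759: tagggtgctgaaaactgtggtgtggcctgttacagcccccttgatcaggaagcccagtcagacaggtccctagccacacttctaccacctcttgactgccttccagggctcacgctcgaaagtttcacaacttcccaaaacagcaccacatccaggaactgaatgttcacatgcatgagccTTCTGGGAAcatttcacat
Il17rd intron, chr14:27045150-27045349: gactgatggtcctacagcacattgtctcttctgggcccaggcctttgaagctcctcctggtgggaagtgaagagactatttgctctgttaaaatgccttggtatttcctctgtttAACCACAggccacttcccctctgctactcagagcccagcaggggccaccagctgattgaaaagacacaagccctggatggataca
Il10rb upstream, chr16:91403186-91403385: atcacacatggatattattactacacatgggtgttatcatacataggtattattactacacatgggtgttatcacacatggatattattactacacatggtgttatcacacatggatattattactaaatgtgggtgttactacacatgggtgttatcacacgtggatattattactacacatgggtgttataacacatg

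Receptor windows held more peaks under MMF, in step with the longer lists. Peaks in the 58 windows numbered 227, 214 and 203 in Control replicates 1 to 3 and 285, 278 and 271 in MMF replicates 1 to 3. The groups did not overlap (two-sided exact permutation test, p = 0.1, the smallest that 3 against 3 samples can give). As a share of each list, however, the receptor peaks were 0.355%, 0.345% and 0.347% in Control and 0.329%, 0.323% and 0.335% in MMF. The mean share was thus lower in MMF (0.329% ± 0.00619 against 0.349% ± 0.00552, SD, n = 3 each, exact permutation p = 0.1). With every list shortened to its 58496 peaks of lowest p, the difference shrank from -0.0200 to -0.00513 percentage points (exact permutation p = 0.5).

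Of the 58 genes, 56 had at least 1 region in their window and 48 had a region present in all 6 lists. The 2 without any region were Il11ra2, a near-identical copy of Il11ra1, and Il13ra2, a decoy chain for Il13. How far short reads could be placed in the Il11ra2 copy was not tested. The Cx3cr1 window held most, with 31 regions. This gene encodes the fractalkine receptor, and its annotated body of 168 kb spans 5 other genes (Csrnp1, Gorasp1, Ttc21a, Wdr48 and Xirp1), so only 5 of the 31 regions lay nearest to its own start. The Il11ra1 window followed with 16 regions, of which 1 was nearest to its own start. Cxcr5, Il17ra, Il1rap and Il6ra had 14 each, of which 11, 10, 14 and 10 lay nearest to the gene's own start. At the other end, Il1rapl1 and Il1rapl2, neuronal relatives of the IL-1 receptor with bodies of over a megabase, held 2 and 1 regions.

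**Figure D1:**
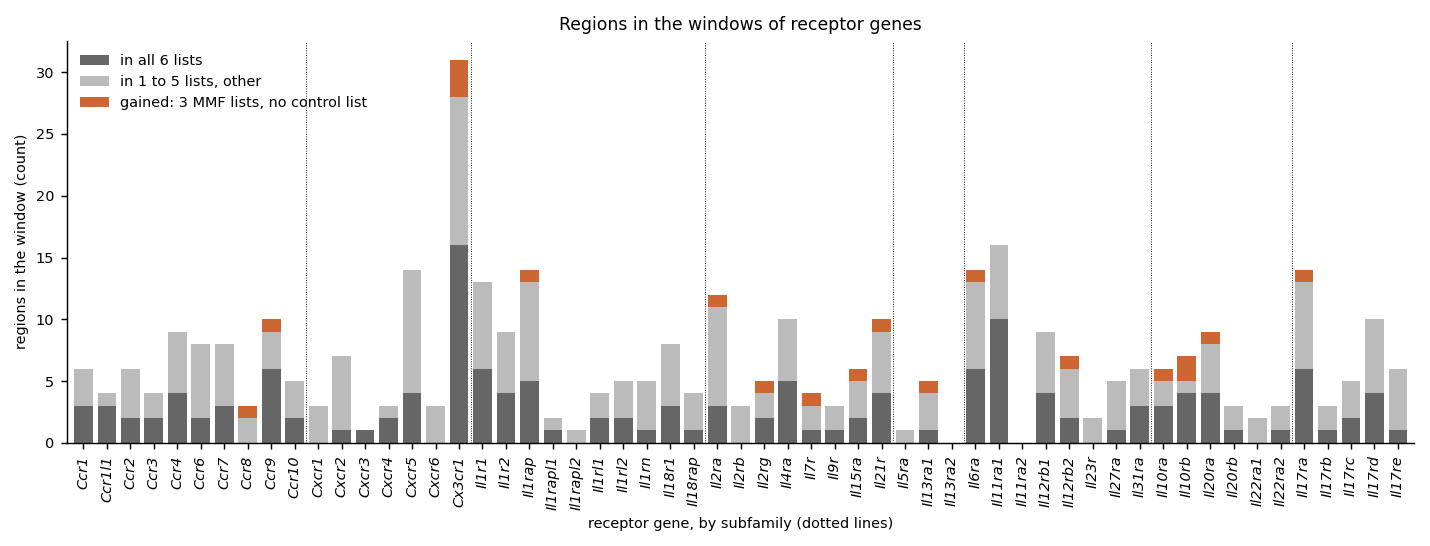
Regions in the windows of 57 receptor genes, as stacked counts (y axis, number of regions) for genes ordered by subfamily (x axis, dotted lines between subfamilies). Colours separate regions with a peak in all 6 lists, in all 3 MMF lists and no Control list, and the remaining patterns. Cx3cr1 stands highest with 31 regions, and Il11ra2 and Il13ra2 have none.

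By position, 212 of the 370 summits lay in an intron, 45 in an exon and 113 between genes. The start of a receptor gene lay within 1000 bp of 47 regions, the start of another gene within that distance of 27, and the remaining 296 were away from protein-coding starts. For 279 regions the nearest protein-coding start was that of a receptor gene, and for 91 it was a neighbour's. A region was therefore assigned by position and not by a measured link to the gene.

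The 5 highest regions by mean rank were at sites that do not mark receptor promoters. The first was in an intron of Il31ra, a chain of the IL-31 receptor, at chr13:112578106-112578381, with 2245, 2197 and 1843 reads over the summit in Control and 2055, 1719 and 1622 in MMF. The central 30 bases of its summit occur at 4 places on the chromosomes used, so its reads may come from several copies. The second was in an intron of Il1rapl1 at chrX:87238282-87238496, 215 bp long with 66.0% of its bases marked as repeats, and held 1231, 1152 and 930 reads in Control and 1023, 859 and 794 in MMF. The other 3 were the promoters of Lztfl1, Snrnp25 and Wdr48, which lie in the windows of Ccr9, Il9r and Cx3cr1.

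At receptor promoters, taken as 1000 bp on either side of an annotated start, 20 of 58 genes (34.5%) had a peak in all 6 lists, 18 had one in some lists and 20 had none. Over all protein-coding genes 53.4% had a promoter peak in all 6 lists and 36.4% had none. Among 16 receptors known from myeloid cells 10 (62.5%) had one in all 6 lists. Among 17 known from lymphocytes 5 (29.4%) had one in all 6, and Ccr6, Ccr7, Ccr8, Il23r and Il9r had none. Further genes without a promoter peak were Cxcr1, Il11ra2, Il12rb1, Il13ra2, Il17rc, Il17re, Il1rapl1, Il1rapl2, Il1rl1, Il1rl2, Il22ra1, Il22ra2, Il31ra and Il5ra.

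Promoter peaks were ranked within their list by fold enrichment, which compares the reads at a summit with the background around it, as a percentile from 0 (no peak) to 100. The myeloid chemokine receptor promoters with a peak in every list kept overlapping ranks between the groups. Ccr1, the receptor for Ccl3 and Ccl5, had ranks of 89.0, 89.6 and 81.5 in Control and 83.7, 87.1 and 85.5 in MMF. Cxcr4 had 71.0, 58.9 and 78.7 in Control and 67.5, 61.3 and 68.6 in MMF. Cx3cr1 had 75.7, 82.3 and 57.1 in Control and 81.8, 83.8 and 83.0 in MMF. In each of these genes at least 1 Control sample lay within or above the MMF range. Cxcr2, the receptor for neutrophil-attracting chemokines, had a promoter peak only in MMF replicates 1 and 3, at ranks 6.67 and 5.19, and Ccr2, the receptor for Ccl2, only in MMF replicate 2, at 32.9. Ccr3, the eotaxin receptor, named after its values were seen, had a peak that reached the promoter interval only in Control replicates 1 and 3, at 89.7 and 64.2. The region at its edge had a peak in all 6 lists, at 89.7, 79.3 and 64.2 in Control and 76.8, 87.4 and 72.1 in MMF, and did not pass (limma, adjusted p = 0.991).

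Among interleukin receptors, the Il6ra promoter (the ligand-binding chain for Il6) was high in every sample, at ranks of 84.7, 92.7 and 81.0 in Control and 81.9, 81.4 and 75.1 in MMF. The Il1rap promoter (the accessory chain shared by IL-1 family receptors) was as high, at 88.7, 92.8 and 88.3 in Control and 90.6, 92.9 and 85.2 in MMF. The Il4ra promoter (the chain shared by the Il4 and Il13 receptors) lay in the middle, at 53.7, 60.5 and 62.5 in Control and 52.5, 49.8 and 55.8 in MMF. The groups overlapped for each of these 3 genes. Il10ra, the Il10-binding chain, had 50.1, 34.1 and 57.8 in Control and 55.7, 31.7 and 41.1 in MMF. The 55.7 of MMF replicate 1 came from a second region 713 bp from the start. The region at the start itself ranked 46.1 in that list. Il17ra, the common chain of the IL-17 receptors, had a promoter peak of low rank, at 23.9, 15.6 and 15.7 in Control and 4.93, 15.6 and 4.98 in MMF. Its summit nevertheless held 22, 20 and 16 reads in Control and 25, 24 and 19 in MMF. Il2rg, the common gamma chain, had 20.3, 21.2 and no peak in Control and 32.1, 37.5 and 10.1 in MMF. In MMF replicates 2 and 3 these ranks came from a second region, nearest to the start of Gm20489. The region at the Il2rg start itself had an MMF peak only in replicate 1.

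Il1rn split its Control samples: the promoter of this receptor antagonist ranked 14.1, 17.1 and 66.0 in Control and 67.9, 53.5 and 61.4 in MMF. Control replicate 3 lay within the MMF range, and the region did not pass the limma test over the table (adjusted p = 0.226) but did without Control replicate 3 (limma, adjusted p = 0.0368). Il1r1, the signalling IL-1 receptor, had no promoter peak in Control replicates 1 and 2, a rank of 12.5 in replicate 3, and 54.5, 28.9 and 76.8 in MMF. Its decoy counterpart Il1r2 had a peak reaching the promoter interval only in Control replicate 3 (8.31) and MMF replicate 3 (33.9), although the region at the edge had one in all 6 lists. Il2ra had a promoter peak only in MMF replicate 1 (28.0).

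**Figure D2:**
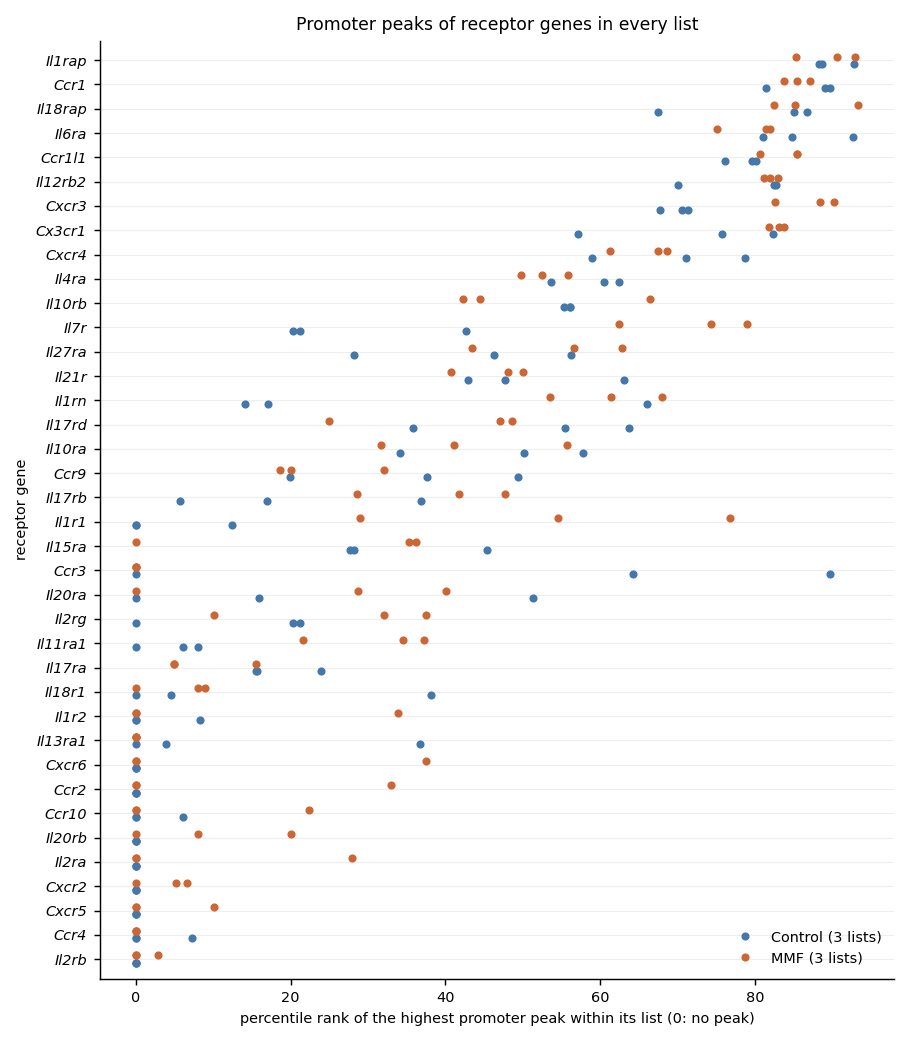
Percentile rank of the highest promoter peak within its list (x axis, 0 where the list has no peak) for each receptor gene with a promoter peak (y axis), with 1 point per Control and per MMF list. The points of both groups overlap for most genes. At Ccr1l1, Cxcr3, Il1r1, Il11ra1 and Il7r all MMF points lie above all Control points.

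Counted over the 38 receptor genes with a promoter peak, all 3 MMF ranks exceeded all 3 Control ranks at 5 (Ccr1l1, Cxcr3, Il1r1, Il11ra1 and Il7r) and lay below them at 0. Over all 13942 genes with a promoter peak these shares were 8.79% and 8.43%. At Il1r1 all MMF ranks were above for the highest promoter peak, but not for the region at the start itself. The median difference in promoter rank was 3.48 for the receptor genes and -0.0182 for all genes, but at equal list length it was -6.86 and -5.43, so its sign was not the same with full and with shortened lists. Il11ra1, whose promoter lay in a cluster of other genes, ranked 6.06, no peak and 8.0 in Control and 34.5, 21.6 and 37.2 in MMF.

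Regions with a peak in all 6 lists allow a test. The ranks were turned into normal scores (1 unit is 1 standard deviation of a normal distribution) and fitted with limma over all 41182 such regions, of which 146 were receptor regions. Of these 146, 7 (4.79%) passed an adjusted p of 0.05 as higher under MMF and 0 as lower, against 5.83% and 0.185% of all regions tested. At an unadjusted p under 0.05, limma gave 35 higher (24.0%) and 2 lower (1.37%), against 22.3% and 2.62% of all regions. The median score difference was 0.22 for receptor regions and 0.17 for all, with 104 of 146 above 0. On ranks within the list, the receptor regions were thus called no more often than the rest of the table.

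Of the 7, a region downstream of Il20ra had the largest difference in summit height (log2 1.51 ± 0.21, SE). Il20ra is the ligand-binding chain for Il19, Il20 and Il24. The region lay 5195 bp past the gene at chr10:19765248-19765881 and ranked 20.3, 47.0 and 23.5 in Control and 91.1, 84.0 and 79.6 in MMF. It rested on 7, 10 and 7 reads over the summit in Control and 36, 23 and 19 in MMF. All MMF samples lay above all Control samples, and the score rose by 1.60 ± 0.25 (SE; limma, Benjamini-Hochberg adjusted p = 0.0198).

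The Il10rb region had the largest score difference of the 7, while its log2 height rose by 1.11 ± 0.18 (SE). Il10rb is the accessory chain shared by Il10, Il22 and interferon lambda receptors. At chr16:91403086-91403598, 2637 bp upstream of its start and in an intron of the overlapping gene Gm21970, ranks were 1.33, 6.20 and 2.91 in Control and 35.9, 49.5 and 42.0 in MMF. The reads were 10, 12 and 10 in Control and 27, 28 and 22 in MMF. The score rose by 1.69 ± 0.22 (SE; limma, adjusted p = 0.0157). Ranks were low beside 10 or more reads because fold enrichment is taken over the local background. This is the region with the repeated 12-base run shown above.

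Upstream of Cxcr5, the receptor that guides B cells and follicular helper T cells, a region at chr9:44567621-44568234 lay 5744 bp from the start. It was already among the highest of its lists, with ranks of 95.5, 95.1 and 88.9 in Control, and rose to 99.5, 99.5 and 99.7 in MMF. The reads were 44, 40 and 26 in Control and 84, 64 and 73 in MMF. The score rose by 1.11 ± 0.19 (SE; limma, adjusted p = 0.0236). The Cxcr5 promoter itself had a peak only in MMF replicate 3, at rank 10.1.

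The Il7r promoter was the only receptor promoter among the 7. Il7r is the Il7-binding chain that lymphoid precursors depend on. The region at chr15:9529595-9530032 ranked 20.3, 21.2 and 42.7 in Control and 79.0, 74.3 and 62.5 in MMF. The reads over its summit were 7, 7 and 9 in Control and 23, 17 and 13 in MMF. The groups did not overlap and the score rose by 1.20 ± 0.24 (SE; limma, adjusted p = 0.0317).

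Ccr9, a receptor for Ccl25 on gut-homing lymphocytes, had a called region in an intron at chr9:123722753-123723125, nearest to the start of Lztfl1. It ranked 65.4, 47.0 and 63.6 in Control and 92.8, 79.1 and 95.3 in MMF (score difference 1.09 ± 0.26, SE; limma, adjusted p = 0.0495). The window of Ccr4, a receptor for Ccl17 and Ccl22, held one at chr9:114507522-114507930, which lay in an exon of Trim71 2606 bp from the Ccr4 gene. It ranked 25.3, 27.2 and 40.1 in Control and 69.5, 72.9 and 59.7 in MMF (0.96 ± 0.19, SE; limma, adjusted p = 0.0334). Il17rd, a member of the IL-17 receptor family also known as Sef, had one in an intron at chr14:27045032-27045418, with ranks of 27.5, 25.2 and 38.6 in Control and 76.1, 53.9 and 69.1 in MMF (0.95 ± 0.21, SE; limma, adjusted p = 0.0430). In all 3 regions every MMF sample lay above every Control sample. For 5 of the 7 called regions the nearest start was a receptor gene's.

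**Figure D3:**
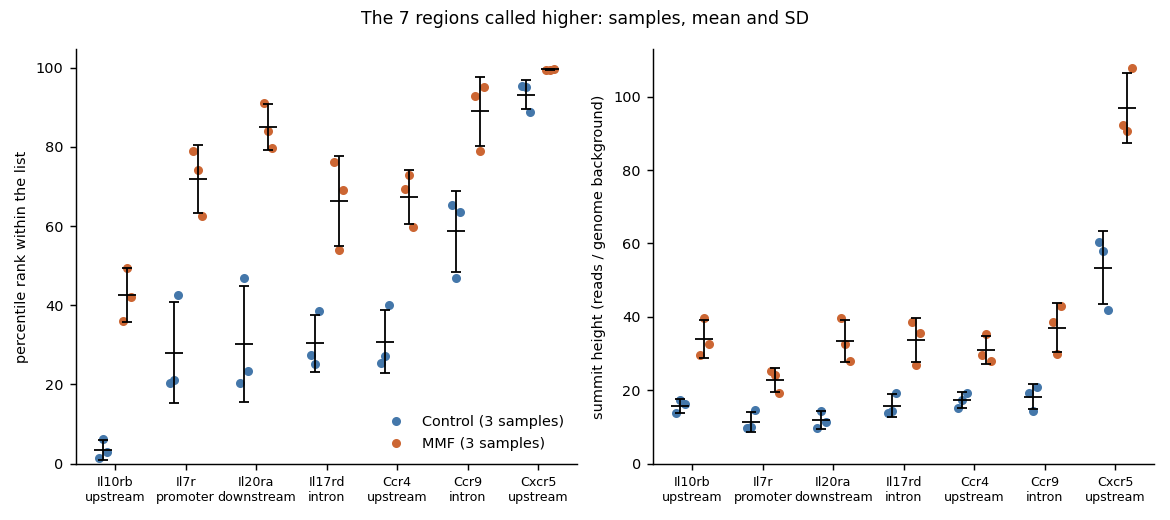
The 7 receptor regions called higher under MMF, with the percentile rank within the list and the summit height (reads over the summit divided by the genome background of the sample) on the y axes and the regions on the x axis. Points are the 3 Control and 3 MMF samples with the mean and SD of each group, and in each region all MMF points lie above all Control points.

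These calls changed with the number of samples kept and with the scale. Leaving out MMF replicate 1, 2 or 3 left 0 calls among the receptor regions and 0 over the whole table in limma, with 27, 27 and 26 receptor regions higher and 2, 2 and 0 lower at an unadjusted p under 0.05. Leaving out Control replicate 1, 2 or 3 gave 4 of 150, 3 of 151 and 7 of 154 receptor regions called higher. Of these, 3, 3 and 5 were among the 7 above. Over the table, the same settings called 1707 of 43040, 1589 of 43434 and 1309 of 44539 regions higher. Those of Cxcr5, Il20ra and Il10rb were called each time. Ranks were also taken among the shared regions alone, so that peaks outside them no longer entered. On that scale 2 receptor regions passed as higher (Il20ra, adjusted p = 0.0390, and Il10rb, adjusted p = 0.0431, limma) and 0 as lower, against 1.44% and 0.425% of all regions. At an unadjusted p under 0.05 limma then gave 19 higher (13.0%) and 17 lower (11.6%), against 12% and 11.2% of all regions. The median score difference on that scale was -0.03 for receptor regions and -0.07 for all.

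The direction of the calls over the whole table moved with the scale too. It was 2402 higher and 76 lower on ranks within the full lists and 594 and 175 on ranks among shared regions alone. At equal list length it was 578 and 569 of 35965 regions tested. At that length 2 of 130 receptor regions passed as higher, those of Cxcr5 (limma, adjusted p = 0.0390) and Il20ra (limma, adjusted p = 0.0362), and 2 as lower. The lower ones were introns of Il4ra at chr7:125554505-125555000 (score difference -1.48 ± 0.27, SE; limma, adjusted p = 0.0348) and of Il1r2 at chr1:40081098-40081481 (-1.01 ± 0.21, SE; limma, adjusted p = 0.0426). With the full lists the Il4ra region ranked 47.7, 36.1 and 54.7 in Control and 34.3, 34.8 and 13.1 in MMF and did not pass (limma, adjusted p = 0.225).

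The height of a summit, its reads divided by the genome background of the sample, gave more calls. On log2 height, 34 of the 146 receptor regions (23.3%) were higher in limma and 0 lower, against 18.6% and 0.969% of all regions, and 3 receptor regions were lower at an unadjusted p under 0.05. The median region rose 1.17-fold at receptors and 1.12-fold over the table, so every value includes a shift of 0.16 on the log2 scale that the table as a whole shows. The 34 were between 1.57-fold and 2.85-fold higher, lay in the windows of 23 of the 48 receptor genes with a tested region, and included all 7 regions called on ranks.

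By position, 31 of 105 tested receptor regions away from promoters (29.5%) were higher on this scale, against 24.5% of such regions over the table. At promoters, 3 of 41 (7.32%) were higher, against 3.25% over the table. These 3 were the Il7r and Cxcr3 promoters and a region near the start of Ttc21a in the Cx3cr1 window. Cxcr3 is the receptor for the interferon-induced chemokines Cxcl9 and Cxcl10. Its promoter at chrX:101733572-101734493 had heights of 28.8, 30.4 and 30.6 in Control and 57.2, 56.7 and 47.3 in MMF, and its log2 height rose by 0.84 ± 0.16 (SE; limma, adjusted p = 0.00693).

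Regions in the windows of receptors known from myeloid cells were higher on height at 16 of 68 (23.5%), and of those known from lymphocytes at 10 of 36 (27.8%). A region in Ccr2 at chr9:124103199-124103701 had heights of 28.8, 24.6 and 33.9 in Control and 51.7, 53.8 and 56.2 in MMF (log2 difference 0.90 ± 0.17, SE; limma, adjusted p = 0.00691). An intron of Ccr1 at chr9:123964794-123965139 had 27.4, 28.9 and 40.3 in Control and 49.5, 60.9 and 76.9 in MMF (0.95 ± 0.22, SE; limma, adjusted p = 0.0144). An upstream region of Cxcr2 at chr1:74149142-74149747 had 32.9, 37.6 and 22.6 in Control and 45.1, 55.2 and 51.7 in MMF (0.74 ± 0.21, SE; limma, adjusted p = 0.0363). None of these 3 passed on ranks within the list, and the groups did not overlap in height at any of them.

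Among the interleukin receptors, Il1rap had 2 regions higher on this scale. The one at chr16:26692679-26693020, 110922 bp into the gene, had heights of 41.2, 18.8 and 30.6 in Control and 71.5, 76.5 and 56.2 in MMF (1.23 ± 0.27, SE; limma, adjusted p = 0.0118). Il15ra, the chain that presents Il15 to neighbouring cells, had a region in an intron at chr2:11710084-11710580 with 12.3, 20.2 and 32.2 in Control and 50.6, 41.1 and 56.2 in MMF (1.29 ± 0.31, SE; limma, adjusted p = 0.0163). Il6ra had 2, of which the one at chr3:89911171-89911642, 1520 bp from the start, had 42.5, 41.9 and 37.1 in Control and 63.8, 77.9 and 69.5 in MMF (0.79 ± 0.17, SE; limma, adjusted p = 0.00941). The Il6ra promoter itself did not pass (limma, adjusted p = 0.991 on log2 height). In Il20ra, an intron region at chr10:19747598-19748070 had heights of 20.6, 18.8 and 12.9 in Control and 51.7, 48.2 and 32.5 in MMF (1.34 ± 0.24, SE; limma, adjusted p = 0.00489).

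By subfamily, the median log2 height difference was 0.33 for CC chemokine receptors, 0.20 for CXC and CX3C chemokine receptors, 0.45 for IL-1 family receptors and 0.31 for common gamma chain receptors. It was 0.15 for the IL-6 and IL-12 family, 0.16 for the IL-10 family and 0.23 for the IL-17 receptors. The medians rest on 28, 24, 23, 18, 26, 13 and 13 regions in that order, and differences between subfamilies were not tested.

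**Figure D4:**
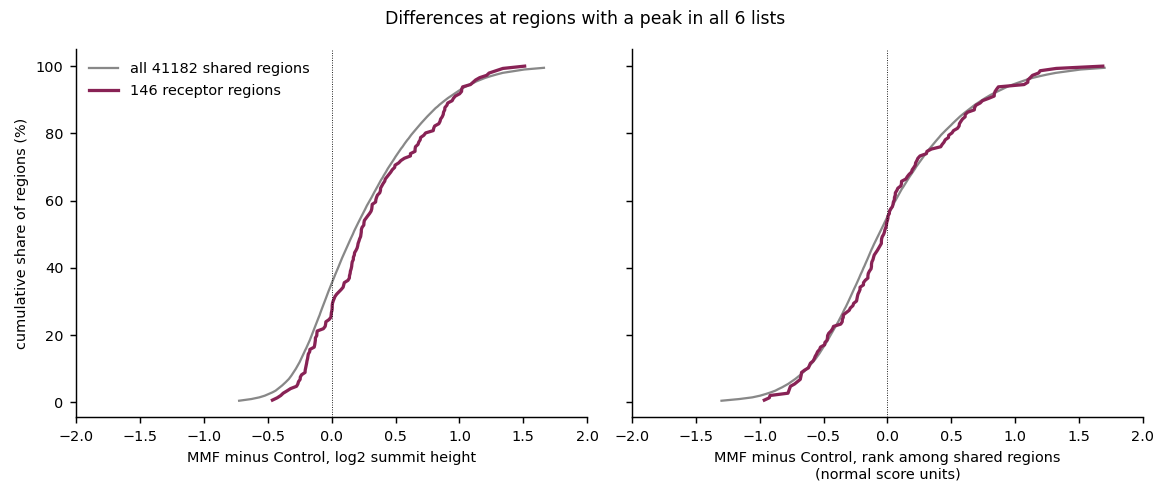
Cumulative share of regions (y axis, percent) by the difference MMF minus Control (x axis) for the 146 receptor regions and all 41182 shared regions, on log2 summit height and on scores ranked among shared regions. The receptor curve lies close to that of all regions on both scales, with medians of 0.23 against 0.16 on log2 height and -0.03 against -0.07 on scores.

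Regions present in 1 group alone were counted separately. Of the 370 receptor regions, 146 (39.5%) had a peak in all 6 lists, against 36.5% of all regions. All 3 MMF lists and no Control list held 20 (5.41%), against 6.0% of all regions, and 0 showed the opposite pattern, against 0.182%. A further 24 (6.49%) were in all 3 MMF lists and 1 Control list, against 5.38% of all regions, and 4 (1.08%) in all 3 Control lists and 1 MMF list, against 0.546%. At equal list length, 5 of 284 receptor regions (1.76%) were present in MMF alone, against 2.35% of all regions, and 3 (1.06%) in Control alone, against 1.36%. The shares present in 1 group alone thus lay at or below those of the whole table with full and with shortened lists, while those with 1 list of the other group lay above.

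The 20 regions lay in the windows of 17 genes, with 17 of them away from promoters, and for 14 the nearest start was a receptor gene's. Their heights ran from 7.39 to 46.7 and their ranks from 1.35 to 68.9. The 5 that were present in MMF alone at both list lengths were at Il15ra, Il10rb, Il1rap, Il20ra and Il17ra. The Il15ra intron region at chr2:11722516-11722979 ranked 68.9, 60.5 and 39.3 in MMF replicates 1 to 3 with 18, 13 and 9 reads over the summit. The Il10rb intron region at chr16:91415358-91415669 had 26, 19 and 19 reads, and the Il20ra intron region at chr10:19745790-19746128 had 19, 16 and 13. Sequences at the summits of these 3 are among those shown above.

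The Il1rap region at chr16:26724068-26724303, in an exon of the gene, had 14, 13 and 11 reads. The Il17ra region at chr6:120454634-120455075, 8172 bp upstream, had 40, 33 and 28 reads. It ranked only 9.24, 12.4 and 7.34, with a fold enrichment over the local background of 4.21, 4.30 and 4.12. Il10ra had a region at chr9:45267937-45268433, 713 bp from its start, with 22, 7 and 11 reads. It ranked 55.7, 1.35 and 36.2, so replicate 2 lay near the bottom of its list.

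Il6ra had a region in an intron at chr3:89905162-89905336 with 14, 10 and 13 reads. Il7r had a region in an intron at chr15:9528242-9528480, 1348 bp from its start, with 12, 13 and 5 reads, beside the promoter region called higher. Il21r, a receptor of the common gamma chain family, had one 1425 bp from its start with 18, 16 and 17 reads. Another 10 regions lay in the windows of Il2ra, Il12rb2, Cx3cr1 (3 regions), Ccr8, Ccr9, Il10rb, Il13ra1 and Il2rg, with between 6 and 15 reads in each MMF sample.

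**Figure D5:**
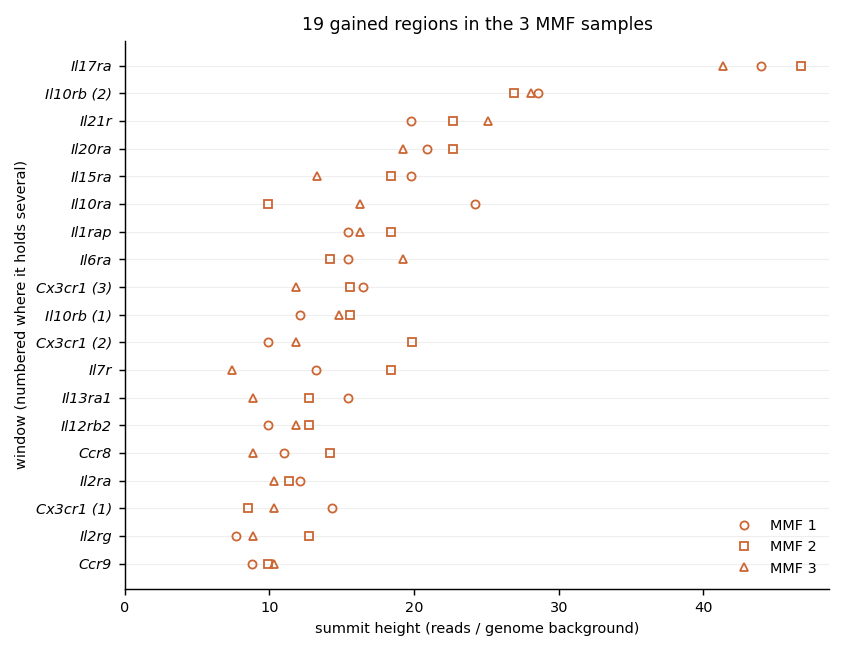
Summit height (x axis, reads divided by the genome background of the sample) of 19 of the 20 receptor regions with a peak in all 3 MMF lists and no Control list, with 1 symbol per MMF replicate and the regions on the y axis. The Il17ra region stands highest, and no region fell below 7.39.

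The 3 regions present in Control alone at equal list length lay at Il27ra, Ccr4 and Ccr9. The Il27ra intron region at chr8:84038946-84039364 had 16, 9 and 13 reads in Control, and in the full lists also 11 and 10 reads in MMF replicates 1 and 2. The Ccr4 region at chr9:114506566-114506819 had 13, 14 and 13 reads in Control, with a peak of 12 reads in MMF replicate 3 of the full lists. The Ccr9 region at chr9:123678328-123678924, at an annotated start, was present in all 6 full lists. Each of the 3 therefore had MMF peaks that the shorter lists left out.

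The motif content of receptor regions was near that of all regions. In the 200 bp around the summit, the C/EBP motif TTGCNNAA was in 66 of 370 receptor regions (17.8%) and 15% of all regions. It was in 8 of the 20 receptor regions present in MMF alone (40%), against 23.5% of all such regions, and in 0 of the 7 called higher on ranks. The PU.1 motif was in 8.11% of receptor regions and 8.28% of all, the RUNX motif in 11.6% and 10.7%, and the AP-1 motif in 16.5% and 16.1%. The GATA motif AGATAA was in 5.41% and 6.92%, and the STAT motif in 6.49% and 6.17%. Both strands were searched. A match describes these letters only, and the shares were not tested.

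The genes that feed into and act below these receptors were read at their promoters. Of 35 chemokine ligand genes found in the annotation, 8 had a promoter peak in all 6 lists. In limma over all shared regions, 2 of 9 tested ligand promoters passed as higher, Ccl24 and Cxcl2, and 0 as lower. Over all genes, 75 of 11708 tested promoters passed as higher and 16 as lower. Ccl24, a ligand of Ccr3, ranked 13.3, 44.0 and 32.1 in Control and 77.0, 77.6 and 73.0 in MMF (limma, adjusted p = 0.0318). Cxcl2, a ligand of Cxcr2, ranked 56.0, 28.9 and 29.6 in Control and 83.6, 77.2 and 72.2 in MMF (limma, adjusted p = 0.0406). All MMF ranks exceeded all Control ranks at 6 of the 18 ligand genes with a promoter peak, with 0 the other way. Over all genes with a promoter peak these shares were 8.79% and 8.43%. Of 30 interleukin genes, 5 had a promoter peak in all 6 lists. In limma 0 of these passed, with 3 higher and 0 lower at an unadjusted p under 0.05 and 2 higher on log2 height. Over all genes, 509 of the 11708 promoters were higher and 459 lower at an unadjusted p, and 295 were higher on log2 height. Of 12 interleukin genes with a promoter peak, 6 (Il4, Il7, Il12b, Il15, Il18 and Il23a) had all MMF ranks above all Control ranks and 0 below, against the same 8.79% and 8.43%.

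Promoters of the signalling genes were open in nearly every list and did not pass. Of 17 JAK-STAT genes 16 had a promoter peak in all 6 lists (Stat4 had none), of 11 adaptors of IL-1 and IL-17 receptors all 11 did, and of 15 chemokine receptor signalling genes 12 did. Limma called 0 promoters of these 3 groups on ranks and 0 on log2 height. At an unadjusted p under 0.05 on ranks, 1 JAK-STAT gene was higher and 1 chemokine signalling gene lower. At 5 of 13 chemokine signalling genes with a promoter peak (Arrb2, Gnb1, Gnb2, Grk2 and Rgs2) all MMF ranks lay below all Control ranks, and at 0 above. Of 16 JAK-STAT genes with a promoter peak, 2 had all MMF ranks below and 2 above, and of 11 adaptors 0 had either. Over all genes with a promoter peak, 8.43% lay below and 8.79% above. Of 14 receptor chains and atypical receptors outside the naming rule, which include Il3ra and Csf2rb, 5 had a promoter peak in all 6 lists, and 0 passed in limma at an adjusted or an unadjusted p under 0.05. Of the 8 with a promoter peak, 1 had all MMF ranks below all Control ranks and 0 above.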

How the data were processed

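ATAC-seq peak lists of 3 Control and 3 MMF samples were used, grouped by the sample titles. Per the paper's methods and the submitters' processing notes, which also name FastQC and Trim Galore, the authors aligned reads to mm10 (Bowtie2) and ran MACS2 on every sample separately. Versions and options are not given in the sources used here, and replicates were not pooled. The deposited lists give each peak's fold enrichment, a ratio of summit reads to local background, and its p and q as −log10 p and −log10 q. Other series' columns were not present, and reads and the authors' differential peaks were not analysed here.

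Lists were restricted to the 19 autosomes, X and Y and merged into regions, counted as held by a sample when 1 bp or more of a peak fell in them. Summit reads were solved as whole numbers from fold enrichment and p, and intervals on them would cover counting error only. Height is summit reads over the commonest background of the list, between 0.620 and 0.909 reads per 150 bp. The gained and lost regions were those in all lists of 1 group and none of the other. Percentile ranks by fold enrichment were turned into normal scores and fitted with limma 3.58.1 (lmFit, eBayes) in R 4.3.3 over all shared regions, with Benjamini-Hochberg adjustment at 0.05, after tests on simulated data. Sample values were compared by two-sided exact permutation tests (scipy 1.17.1). Genes came from GENCODE M21 and sequences from the RefSeq genome of GRCm38.

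Named regions were those called, those gained or lost (up to 15 of each by mean rank, further ones by count), the 5 highest, the promoters of 16 receptors listed by name and the genes with most or no regions. Regions called on other scales were named as examples after their values were seen. The genes and all lists were chosen with earlier results of these data known. 1 gene is counted but not reported here. Alternatives covered ranking, list length, thresholds, overlap, window, pairing and each sample left out.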

Additional observations from a re-analysis of the deposited data

How the results depend on the processing

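Absent peaks lie below a calling threshold, regions rest on few reads, and list length differs between the groups. With every list cut to equal length, gained receptor regions fell from 20 to 5, lost regions went from 0 to 3, calls higher from 7 to 2 and calls lower from 0 to 2, and the median promoter rank difference from 3.48 to -6.86. This setting tests fewer regions (130 receptor regions of 35965) and drops the weaker peaks of the longer lists. Requiring 2 of 3 lists gave 51 gained (13.8%, against 13.6% of all regions) and 6 lost (1.62%, against 1.02%). Requiring a peak to cover at least 50% of its region, an alternative added after seeing the data because the planned overlap rule could change nothing, gave 23 gained and 1 lost. These 2 counts are given without a share over all regions. Over the table of 41182 regions, calls higher were 3922 when ranked by −log10 p, 594 when ranked among shared regions and 7643 on log2 height. Among the 146 receptor regions they were 16, 2 and 34 in that order, and 3 with gene bodies without flanks. The last setting holds fewer regions, and its count is given without a share over all regions. For the other settings the cause was not tested.

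Leaving out 1 sample gave 26 to 32 gained, 1 to 3 lost and 0 to 7 called higher. The gained and lost counts in this paragraph are given without their share over all regions. The 0 came from each MMF sample, while each Control sample left out gave 3 to 7. The cause was not tested. With the replicate number as a block, 2 of 146 regions stayed called, those of Il20ra (limma, adjusted p = 0.0482) and Il10rb (limma, adjusted p = 0.0465). Over the table that setting called 678 of 41182 regions higher and 13 lower. Deviations of same-numbered samples correlated at 0.00406 to 0.00787, and each sample correlated best with its own number. Single regions rest on few reads, so values this small cannot tell whether the samples were paired. Counting only regions nearest a receptor start (added after seeing the data) gave 14 gained and 5 called, without those of Ccr9 and Ccr4. The 5 called are likewise given without a share over all regions. The threshold of q left 20 gained and 0 lost. None of the 7 called regions changed sign in a limma setting, whereas 10 of the 14 named regions that were not called did in at least 1, none past the threshold.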
